A study of Homo sapiens with 16 samples.

Results

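The 10 genes described here are the writers, erasers and guides of DNA methylation: UHRF1, UHRF2, DNMT1, DNMT3A, DNMT3B, TET1, TET2, TET3, HELLS and MBD4. They were matched by gene symbol, and each of the 10 was listed in all 6 tables of the study, out of 19315 genes listed in any table and 12069 listed in all 6. The members were chosen by their role, with the log2 fold changes and adjusted p-values of these same comparisons known, so counts over the members describe them and support nothing further. The study measured total RNA by sequencing in 2 human cell lines, U2OS (osteosarcoma) and HCT116 (colorectal carcinoma). Cells of each line received small interfering RNA (siRNA) against MYBL1 (siMYBL1), against MYBL2 (siMYBL2) or against both (siMYBL1-siMYBL2, the double knockdown), and the comparison group received a non-targeting siRNA (siCtrl). RNA was collected after 48 hours, with 2 libraries, described as biological replicates, in each of the 8 groups. Both targets encode MYB transcription factors, A-MYB (MYBL1) and B-MYB (MYBL2), and the comparisons ask which genes change when either or both are reduced.

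DNA methylation is copied at each cell division: UHRF1 recognises newly replicated DNA that carries the mark on the parental strand only, ubiquitinates histone H3 and brings in DNMT1, which methylates the new strand. DNMT3A and DNMT3B place the mark on unmethylated sites, and HELLS (LSH), a nucleosome remodeller, opens chromatin for these enzymes. TET1, TET2 and TET3 oxidise 5-methylcytosine as a first step of its removal, and MBD4 is a glycosylase that cuts out thymine left when 5-methylcytosine deaminates. UHRF1, DNMT1 and HELLS are usually most abundant in dividing cells, and loss of UHRF1 or DNMT1 protein function is known to cause loss of methylation over successive divisions. Methylation itself was not measured in this study.

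The values available were the authors' comparisons, each with a log2 fold change of knockdown over siCtrl and its standard error (SE), and not values per library. A gene was called where the adjusted p of the authors' DESeq2 test was below 0.05. The mean normalized count of each group was worked out from the mean over all libraries of a comparison and the fold change. The depth of single libraries is unknown, and the mean normalized counts summed to between 17441617 and 19826741 per table. MYBL2 fell in the authors' deposited tables to 4.53% of siCtrl after siMYBL2 and 4.34% after the double knockdown in U2OS, and to 9.05% and 9.92% in HCT116. MYBL1 fell, in the authors' deposited tables, to 50.7% after siMYBL1 and 43.5% after the double knockdown in U2OS, and to 31.4% and 27.8% in HCT116. Of 8 mesenchymal and bone markers, 7 were listed in every U2OS table (COL1A2 in none), against 4 to 6 in the HCT116 tables. All 8 epithelial markers were listed in every HCT116 table, and 5 to 7 in the U2OS tables (KRT19 in none). Of 6 blood cell markers none was listed in 5 tables and 1, at a base mean of 5.20, in the HCT116 siMYBL1 table.

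UHRF1 was the member that fell most often: it was called lower in 5 of the 6 comparisons, and the other members together gave 4 calls. Across the 60 values of 10 members in 6 tables, 7 were called lower, 2 were called higher, and UHRF2, DNMT1, TET2, TET3 and MBD4 had no call. In U2OS, 2 members were called after siMYBL1, 1 after siMYBL2 and 3 after the double knockdown, where 5.71%, 5.20% and 12.6% of all listed genes were called in either direction. In HCT116, the counts were 0 after siMYBL1, 1 after siMYBL2 and 2 after the double knockdown, where 0.260%, 1.13% and 6.95% of all listed genes were called. None of the 10 members had an unadjusted DESeq2 p under 0.05 in the HCT116 siMYBL1 table, so the count of 0 is the same before adjustment. The median log2 fold change of the 10 members was 0.10, 0.07 and 0.08 in U2OS (siMYBL1, siMYBL2, double knockdown) and 0.01, 0.02 and -0.20 in HCT116, beside 0.02, 0.01, 0.01, 0.00, -0.02 and -0.02 over all listed genes.

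**Figure D1:**
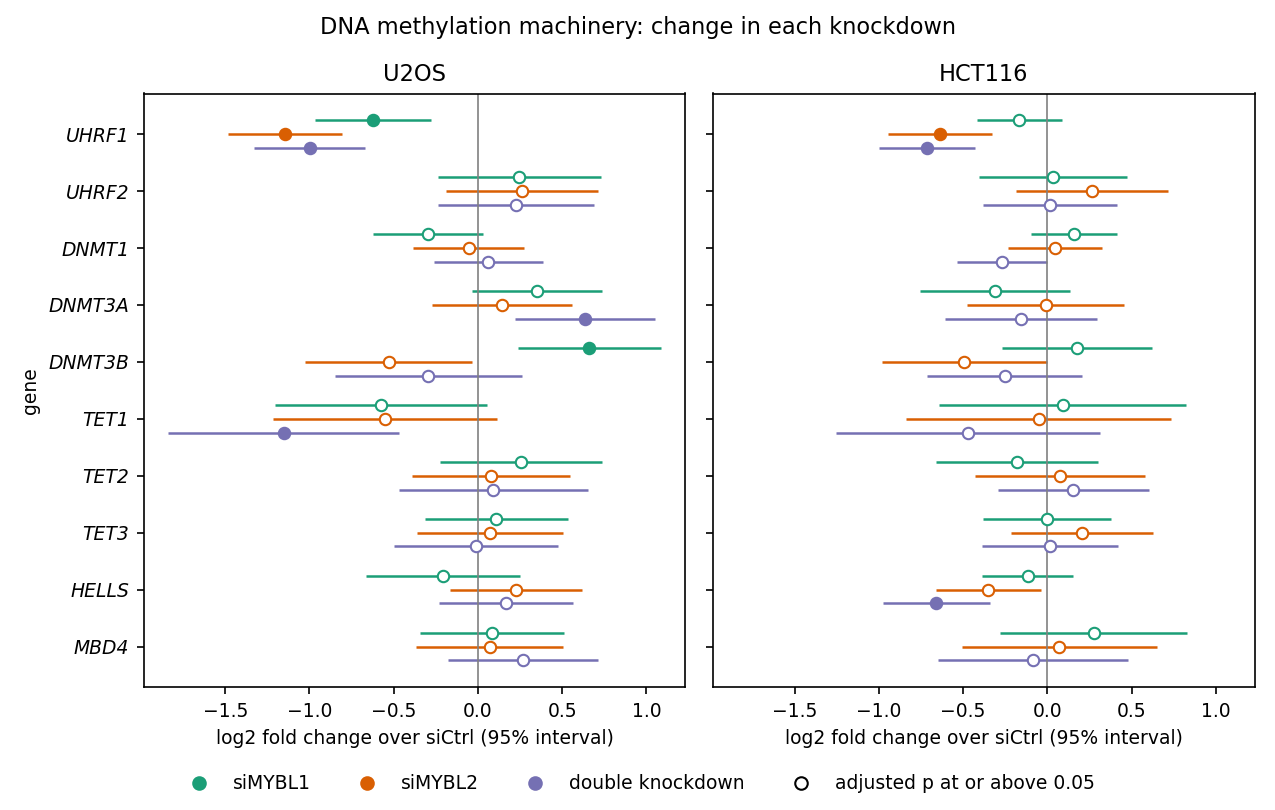
Log2 fold change over siCtrl (x axis) of each of the 10 members (rows) in U2OS (left) and HCT116 (right), from the authors' deposited tables; points are colored by knockdown, lines are 95% intervals, and filled points have an adjusted p below 0.05. UHRF1 lies below 0 in all 6 comparisons and is filled in 5, whereas DNMT1, UHRF2, TET2, TET3 and MBD4 have open points throughout.

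UHRF1 (ENSG00000276043, hg38 chromosome 19, 4903080 to 4962154, forward strand) reads the half-methylated state and is the targeting subunit of maintenance methylation. In U2OS its mean normalized count was 1552 after siMYBL1, against 2392 in siCtrl, worked out from the authors' deposited table. After siMYBL2 it was 1141 against 2521 in siCtrl, and after the double knockdown 1204 against 2404 in siCtrl, likewise from the authors' deposited tables. All 3 U2OS knockdowns therefore stood below siCtrl, at 64.9% of its level after siMYBL1, 45.3% after siMYBL2 and 50.1% after the double knockdown. The log2 fold changes in the authors' deposited tables were -0.62 (SE 0.175, adjusted p = 0.0119), -1.14 (SE 0.172, adjusted p = 8.47e-09) and -0.998 (SE 0.168, adjusted p = 1.76e-07) for siMYBL1, siMYBL2 and the double knockdown. Ordered by the test statistic from the lowest, UHRF1 was gene 54 of 15478 after siMYBL2, gene 182 of 14763 after siMYBL1 and gene 195 of 16803 after the double knockdown. In bulk RNA, fewer cells that express UHRF1 and less UHRF1 RNA per cell cannot be told apart.

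In HCT116, UHRF1 had a mean normalized count of 2307 after siMYBL2, against 3593 in siCtrl, and of 2292 after the double knockdown, against 3759 in siCtrl, worked out from the authors' deposited tables. After siMYBL1 it was 3153 against 3540 in siCtrl in the authors' deposited table. Both knockdowns that included MYBL2 left UHRF1 at a similar level, 64.2% and 61.0% of siCtrl. Its log2 fold change in the authors' deposited tables was -0.64 after siMYBL2 (SE 0.157, adjusted p = 0.00746) and -0.71 after the double knockdown (SE 0.146, adjusted p = 6.38e-05). In the authors' deposited siMYBL1 table it was -0.17 (SE 0.129, adjusted p = 1), with a 95% interval of -0.42 to 0.09.

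The regions at 6 transcript starts are shown, those of UHRF1 (its 3 RefSeq starts) and HELLS, which were called lower in a double knockdown, beside those of UHRF2 and DNMT1, which were not called in any comparison. Each stretch runs from 200 bases before to 10 bases after a transcript start, 5′ to 3′ on the gene's strand (RefSeq, GRCh38.p14). Capitals mark matches on either strand. The MYB core searched was AACNG. The E2F-like motif TTGGCGC was searched together with its variant TTCGCGC, and GGCGGGA was searched as a further E2F-like motif, as was TTCCCGC. The CHR element was searched as TTTGAA and in its other form as TTCGAA.
UHRF1 chr19:4909301-4909510 (+): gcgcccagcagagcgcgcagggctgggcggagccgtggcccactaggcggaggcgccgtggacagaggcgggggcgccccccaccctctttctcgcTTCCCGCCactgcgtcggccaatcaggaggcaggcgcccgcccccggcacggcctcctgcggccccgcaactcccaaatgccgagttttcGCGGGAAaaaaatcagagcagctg
UHRF1 chr19:4909944-4910153 (+): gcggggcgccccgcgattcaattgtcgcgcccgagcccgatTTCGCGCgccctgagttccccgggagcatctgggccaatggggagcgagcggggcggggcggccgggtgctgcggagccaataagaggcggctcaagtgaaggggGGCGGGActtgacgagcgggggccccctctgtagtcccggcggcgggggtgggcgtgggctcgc
UHRF1 chr19:4910167-4910376 (+): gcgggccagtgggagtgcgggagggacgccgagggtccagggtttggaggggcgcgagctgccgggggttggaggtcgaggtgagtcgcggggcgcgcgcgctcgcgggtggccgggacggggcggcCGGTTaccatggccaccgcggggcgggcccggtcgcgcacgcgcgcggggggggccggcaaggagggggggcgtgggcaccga
HELLS chr10:94545588-94545797 (+): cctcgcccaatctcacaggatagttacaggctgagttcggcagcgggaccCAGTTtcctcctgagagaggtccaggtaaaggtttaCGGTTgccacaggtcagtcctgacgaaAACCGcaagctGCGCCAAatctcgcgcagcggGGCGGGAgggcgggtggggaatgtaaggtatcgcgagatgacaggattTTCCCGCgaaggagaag
UHRF2 chr9:6412999-6413208 (+): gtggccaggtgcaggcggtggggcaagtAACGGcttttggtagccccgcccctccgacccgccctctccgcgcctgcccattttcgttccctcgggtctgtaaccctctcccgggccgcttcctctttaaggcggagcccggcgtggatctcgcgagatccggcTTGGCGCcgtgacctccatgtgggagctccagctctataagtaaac
DNMT1 chr19:10194944-10195153 (-): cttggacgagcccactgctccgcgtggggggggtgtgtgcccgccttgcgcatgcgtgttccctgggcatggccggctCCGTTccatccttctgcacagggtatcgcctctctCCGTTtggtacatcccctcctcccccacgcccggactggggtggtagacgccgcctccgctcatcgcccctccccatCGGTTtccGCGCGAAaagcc

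The first UHRF1 stretch holds TTCCCGC, 104 bases before the start and again, on the reverse strand, 14 bases before it, and the earlier match overlaps a reverse GGCGGGA. The second holds TTCGCGC 159 bases and GGCGGGA 54 bases before its start. The third holds AACNG on the reverse strand, 73 bases before its start, and the other two UHRF1 stretches hold no AACNG. The HELLS stretch holds TTGGCGC on the reverse strand, GGCGGGA and TTCCCGC, 76, 55 and 7 bases before the start. The genes that were not called hold such matches too: UHRF2 has TTGGCGC 36 bases before the start, and DNMT1 has a reverse TTCGCGC 2 bases before it. TTCCCGC was also found in a window of TET3, which was not called. TET1, called lower in the U2OS double knockdown but not shown here, had none of these E2F-like motifs in its windows. Over all 35116 RefSeq windows of 300 bases (250 before to 50 after a start), TTGGCGC was found in 3.04%, TTCGCGC in 2.24%, GGCGGGA in 15.4% and TTCCCGC in 6.55%. AACNG occurred in 77.2% of all windows and in windows of 9 members, UHRF1 among them, and AACGG, which is contained in AACNG, in 19.7% of all windows and in those of DNMT1, DNMT3A and UHRF2. TTTGAA, in 15.2% of all windows, was found in windows of TET2 and DNMT3A, and TTCGAA, in 1.45%, in none of the 21 member windows. TTCCCGC was added after the sequences had been seen. These are matches of letters within the windows, not measured binding.

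DNMT1, the methyltransferase that UHRF1 recruits, was not called in any comparison. In U2OS its mean normalized count, worked out from the authors' deposited tables, was 2623 against 3224 in siCtrl after siMYBL1, 3133 against 3252 after siMYBL2 and 3212 against 3082 after the double knockdown. The log2 fold changes in those authors' deposited tables were -0.30 (SE 0.167, adjusted p = 0.364), -0.05 (SE 0.168, adjusted p = 0.97) and 0.06 (SE 0.165, adjusted p = 0.893). In HCT116 the authors' deposited tables gave 0.16 (SE 0.130), 0.05 (SE 0.143) and -0.27 (SE 0.137, adjusted p = 0.274), the last with 4058 against 4881 in siCtrl. DNMT1 thus lay above siCtrl in 3 comparisons and below it in 3, and its farthest 95% bound over the 6 was 0.62 in size. UHRF2, the relative of UHRF1 that binds 5-hydroxymethylcytosine, had log2 fold changes between 0.02 and 0.26 in the authors' deposited tables, above 0 in all 6, with no adjusted p under 0.658.

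HELLS (ENSG00000119969, hg38 chromosome 10, 94545329 to 94613905, forward strand) fell in HCT116 after the double knockdown, to a mean normalized count of 1228, against 1941 in siCtrl, from the authors' deposited table. In the authors' deposited table this was a log2 fold change of -0.66 (SE 0.162, adjusted p = 0.00181). After siMYBL2 the authors' deposited HCT116 table gave 1483 against 1890 in siCtrl, or -0.35 (SE 0.158, unadjusted p = 0.0266, adjusted p = 0.484), and after siMYBL1 -0.12 (SE 0.138). In HCT116, HELLS stood below siCtrl in each knockdown and was called in the double knockdown. In U2OS it was 524 against 605 in siCtrl after siMYBL1, 762 against 652 after siMYBL2 and 700 against 625 after the double knockdown, in the authors' deposited tables. The matching log2 fold changes in the authors' deposited tables were -0.21, 0.22 and 0.16, with adjusted p of 0.759, 0.772 and 0.72.

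**Figure D2:**
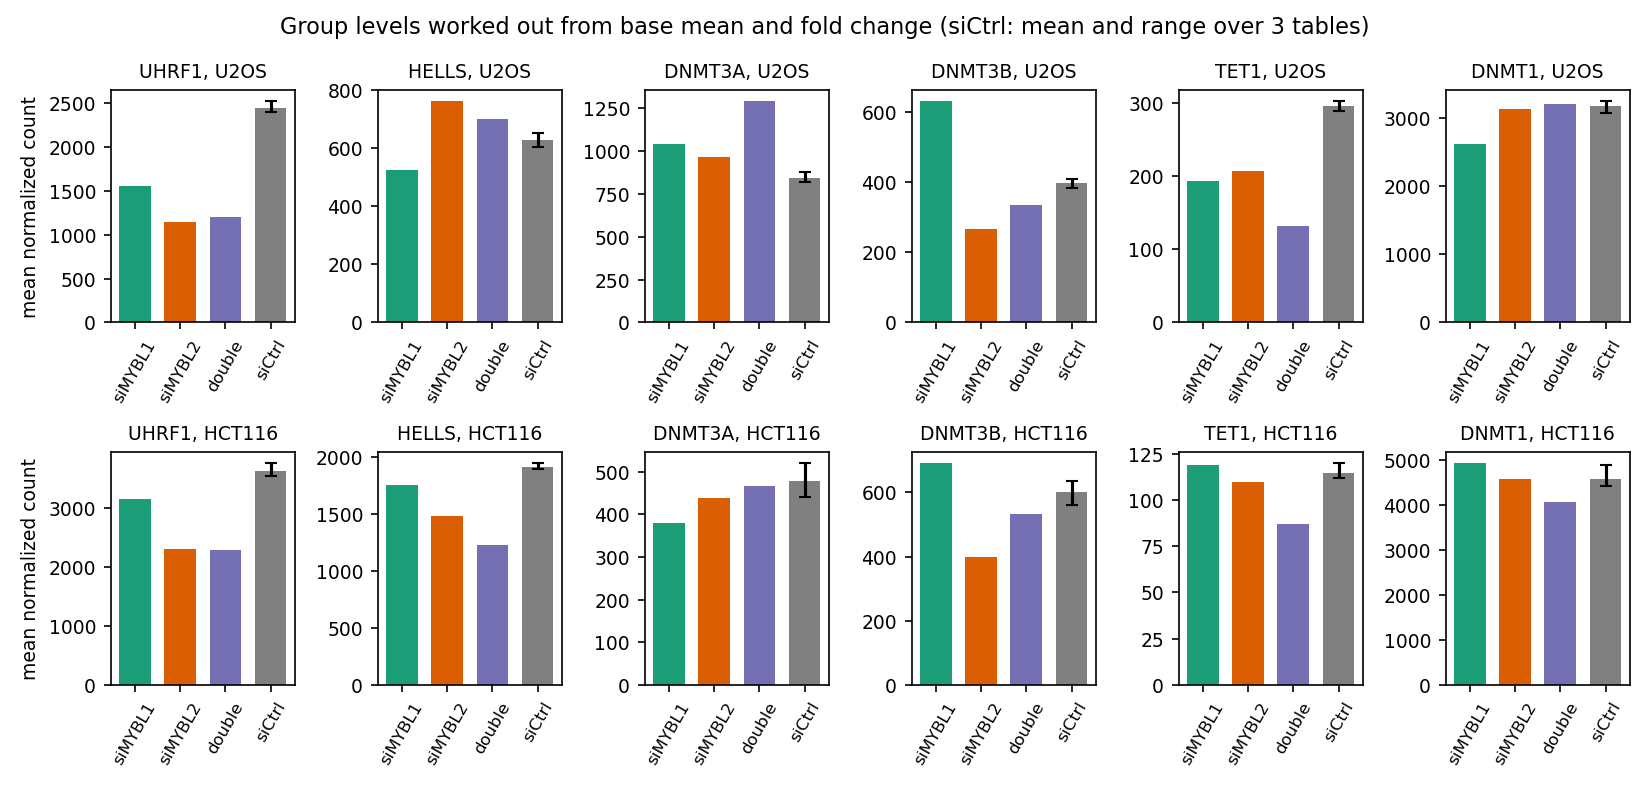
Mean normalized count (y axis) of 6 members in U2OS (upper row) and HCT116 (lower row) for siMYBL1, siMYBL2, the double knockdown and siCtrl, worked out from the authors' deposited tables; the siCtrl bar is the mean of 3 tables and its line their range, which is not a replicate error. UHRF1 bars after siMYBL2 and the double knockdown stand well below siCtrl in both lines (1141 and 1204 against a siCtrl mean of 2439 in U2OS), and the DNMT3B bar after siMYBL1 in U2OS (632) stands above its siCtrl mean of 399.

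The 2 de novo methyltransferases rose in U2OS, each in a different knockdown. DNMT3B (ENSG00000088305, hg38 chromosome 20, 32762385 to 32809359, forward strand) was at 632 normalized counts after siMYBL1, against 400 in siCtrl, worked out from the authors' deposited table. After siMYBL2 it was at 267 against 385 in siCtrl, and after the double knockdown at 335 against 411, in the authors' deposited tables. DNMT3B was thus above siCtrl after siMYBL1 and below it in both knockdowns that included MYBL2. The log2 fold changes in the authors' deposited tables were 0.66 (SE 0.217, adjusted p = 0.043), -0.53 (SE 0.253, unadjusted p = 0.0366, adjusted p = 0.293) and -0.29 (SE 0.284, adjusted p = 0.616). In HCT116 the signs were the same but no value was called: 0.18 after siMYBL1, -0.49 after siMYBL2 (unadjusted p = 0.0491, adjusted p = 0.616) and -0.25 after the double knockdown in the authors' deposited tables. The siMYBL1 call lay close to the threshold, and with the median log2 fold change of all genes set to 0 its adjusted p was 0.0551.

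DNMT3A (ENSG00000119772, hg38 chromosome 2, 25227855 to 25342590, reverse strand) rose in the U2OS double knockdown to 1288 normalized counts, against 829 in siCtrl, from the authors' deposited table. In the authors' deposited table this was a log2 fold change of 0.64 (SE 0.213, adjusted p = 0.0271). After siMYBL1 it was at 1039 against 816 in siCtrl (adjusted p = 0.372), and after siMYBL2 at 965 against 873 (adjusted p = 0.908), in the authors' deposited tables. In U2OS the level was thus above siCtrl in each knockdown and was called in the double knockdown. In HCT116 the log2 fold changes in the authors' deposited tables were -0.31, -0.01 and -0.16, none of them called.

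Of the erasers, TET1 was the member that changed. TET1 (ENSG00000138336, hg38 chromosome 10, 68560337 to 68694487, forward strand) fell in the U2OS double knockdown to 132 normalized counts, against 294 in siCtrl, or 44.9% of siCtrl, from the authors' deposited table. The log2 fold change in the authors' deposited table was -1.15 (SE 0.349, adjusted p = 0.0115). After siMYBL1 it was at 193 against 288 in siCtrl (adjusted p = 0.358), and after siMYBL2 at 206 against 302 (adjusted p = 0.523), in the authors' deposited tables. The level was thus lowest in the U2OS double knockdown, with both single knockdowns in between and uncalled. In HCT116, where TET1 averaged 115 normalized counts in siCtrl, the log2 fold changes in the authors' deposited tables were 0.09, -0.05 and -0.47, with SE from 0.374 to 0.400. TET2 ranged from -0.18 to 0.26, TET3 from -0.01 to 0.21 and MBD4 from -0.09 to 0.28 over the 6 authors' deposited tables. Their smallest adjusted p were 0.692, 0.89 and 0.551, and the farthest 95% bounds were 0.73, 0.63 and 0.83 in size, so with 2 libraries a group changes within these bounds are not excluded.

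The lines also differed in what siCtrl cells contained, although the tables were normalized separately and these levels carry no test. HELLS averaged 627 normalized counts in U2OS siCtrl and 1908 in HCT116 siCtrl, 3.04-fold apart. MBD4 ran the other way, with 619 in U2OS and 191 in HCT116, 3.24-fold apart, and TET1 had 295 in U2OS and 115 in HCT116. HELLS and MBD4 were thus the members whose siCtrl levels lay farthest apart. UHRF1 averaged 2439 in U2OS and 3631 in HCT116, and DNMT1 3186 in U2OS and 4579 in HCT116. Per kilobase of the longest coding transcript, DNMT1 and UHRF1 were the most abundant members of each line, at 589 and 566 in U2OS and 847 and 843 in HCT116. These 2 genes act together in maintenance, and their order turns round with the principal transcript as length, which gives UHRF1 755 in U2OS and 1124 in HCT116. TET1 was the least abundant per kilobase, at 31.7 in U2OS and 12.4 in HCT116. The member next after UHRF1 and DNMT1 was MBD4 in U2OS, at 250 per kilobase, and HELLS in HCT116, at 610 per kilobase.

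Whether losing both factors differed from losing MYBL2 alone was tested as the difference of the log2 fold changes of the authors' deposited tables. No member was called in either line, where 1.05% of genes in U2OS and 0.645% in HCT116 were called, and no member of U2OS or HCT116 had an unadjusted normal-test p under 0.05. For UHRF1 the double knockdown differed from siMYBL2 by 0.15 in U2OS (95% interval -0.33 to 0.62) and by -0.08 in HCT116 (95% interval -0.50 to 0.35). Against siMYBL1, too, no member was called, where 1.54% of genes in U2OS and 1.28% in HCT116 were. Between double knockdown and siMYBL1, the smallest unadjusted p of each line were those of DNMT3B in U2OS, -0.96 (SE 0.357, unadjusted p = 0.00745, adjusted p = 0.255), and UHRF1 in HCT116, -0.55 (SE 0.195, unadjusted p = 0.00497, adjusted p = 0.247). HELLS (-0.54, adjusted p = 0.406) and DNMT1 (-0.42, adjusted p = 0.639) in HCT116 also had an unadjusted p under 0.05, at 0.0108 and 0.0247. Both tables of a line share their siCtrl libraries, which makes this error too large. With a smaller error that allows for it, UHRF1, DNMT1 and HELLS in HCT116 and DNMT3B in U2OS passed against siMYBL1 (normal test, adjusted p = 0.00354, 0.0386, 0.0118 and 0.00529). The smaller error applies to every gene, and the share of all genes passing with it was not worked out. These members therefore have no background beside them.

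The single knockdowns were compared with each other after the data had been seen. DNMT3B differed between siMYBL1 and siMYBL2 in U2OS by 1.19 (SE 0.333, adjusted p = 0.018), the 1 member called there, where 2.92% of genes were called. In HCT116 the DNMT3B difference was 0.67 (SE 0.338, adjusted p = 0.932), no member was called, and 0.493% of genes were; with the smaller error for shared siCtrl libraries 1 member was, UHRF1. The unadjusted normal-test p was under 0.05 in HCT116 for DNMT3B, at 0.0479, and for UHRF1, at 0.0204. The UHRF1 difference between siMYBL1 and siMYBL2 was 0.52 in U2OS (SE 0.246, adjusted p = 0.379) and 0.47 in HCT116 (SE 0.203, adjusted p = 0.702). With the smaller error, the UHRF1 difference passed in U2OS (normal test, adjusted p = 0.0307) and in HCT116 (adjusted p = 0.0358). The shares of 2.92% and 0.493% belong to the larger error, and none was worked out for the smaller one. Also after the data were seen, the double knockdown was set against the sum of both single ones, and no member was called, where 0.211% of genes in U2OS and 0.140% in HCT116 were. UHRF1 departed from the sum by 0.77 in U2OS (SE 0.298, unadjusted p = 0.00971, adjusted p = 1), toward a smaller loss, and by 0.09 in HCT116 (SE 0.250). This direction was not particular to UHRF1 in U2OS: the 27 S-phase genes described below departed by 0.12 to 0.85 (median 0.42), none of them called. The 18 G2 and mitosis genes went the other way there (median -1.38), and in HCT116 the S-phase median was -0.31. For DNMT1 the departure was 0.41 in U2OS (SE 0.288) and -0.47 in HCT116 (SE 0.236, unadjusted p = 0.0477, adjusted p = 1).

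**Figure D3:**
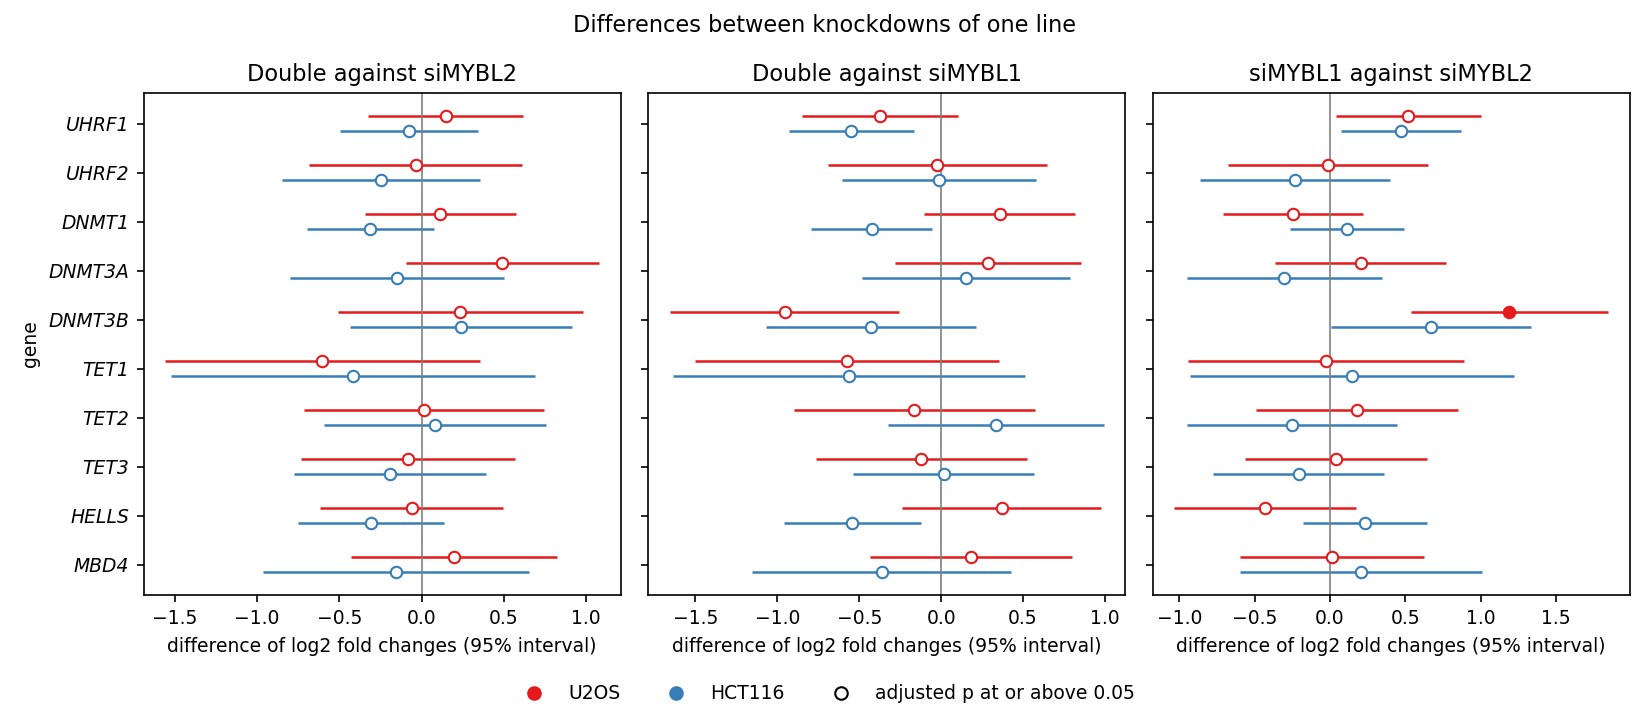
Difference of log2 fold changes (x axis, with 95% intervals) for each member (rows) between double knockdown and siMYBL2 (left), double knockdown and siMYBL1 (middle) and siMYBL1 and siMYBL2 (right), in U2OS (red) and HCT116 (blue); filled points have an adjusted p below 0.05. DNMT3B between siMYBL1 and siMYBL2 in U2OS (1.19) is the 1 filled point.

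Responses of the 2 lines to the same knockdown were compared as U2OS minus HCT116, and no member was called for siMYBL1, siMYBL2 or the double knockdown, where 0.0594%, 0.215% and 1.27% of genes were. HELLS came nearest: after the double knockdown its log2 fold change was 0.16 in U2OS and -0.66 in HCT116, a difference of 0.82 (SE 0.260, unadjusted p = 0.00152, adjusted p = 0.0863). DNMT3A after the double knockdown differed by 0.79 (SE 0.314, unadjusted p = 0.0117, adjusted p = 0.269), with 0.64 in U2OS and -0.16 in HCT116 in the authors' deposited tables. For UHRF1 the difference was -0.46 after siMYBL1 (unadjusted p = 0.0358, adjusted p = 0.965) and -0.50 after siMYBL2 (unadjusted p = 0.0304, adjusted p = 0.978). After the double knockdown the UHRF1 difference was -0.28 (95% interval -0.72 to 0.15). An effect of siMYBL1 on UHRF1 in U2OS and not in HCT116 is therefore not shown to differ between the lines. The other unadjusted p under 0.05 were those of DNMT1 after siMYBL1 (-0.45, adjusted p = 0.907), DNMT3A after siMYBL1 (0.66, adjusted p = 0.867) and HELLS after siMYBL2 (0.57, adjusted p = 0.92).

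UHRF1 was set beside 27 S-phase genes activated by E2F (such as MCM2, CDC6 and RRM2, which act in DNA replication and nucleotide supply) and 18 genes of G2 and mitosis (such as PLK1 and CENPE). After siMYBL2, 3 S-phase genes were lower and 1 was higher in U2OS, with a median log2 fold change of -0.19, and 1 was lower in HCT116, with a median of -0.21, in the authors' deposited tables. The share of all listed genes called after siMYBL2 was 5.20% in U2OS and 1.13% in HCT116. UHRF1, at -1.14 in U2OS and -0.64 in HCT116, lay below all 27 of them in both lines; the lowest was RRM2, at -0.88 in U2OS and -0.53 in HCT116, in the authors' deposited tables. The G2 and mitosis genes included 13 lower in U2OS (median -0.76) and 10 lower in HCT116 (median -0.61), in the authors' deposited tables. Of these 18, 1 lay below UHRF1 in U2OS and 8 did in HCT116. In the double knockdown all 18 were lower in both lines, with medians of -2.63 in U2OS and -1.89 in HCT116 in the authors' deposited tables, and all 18 lay below UHRF1. There, 12.6% of all listed genes were called in U2OS and 6.95% in HCT116.

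Between the double knockdown and siMYBL2, the G2 and mitosis genes fell further (17 of 18 called lower in U2OS, median -1.82, and 14 of 18 in HCT116, median -1.25). Over all genes, 1.05% were called in U2OS and 0.645% in HCT116. The UHRF1 difference was 0.15 in U2OS and -0.08 in HCT116. No S-phase gene was called in either line, and the S-phase median was 0.03 in U2OS and -0.34 in HCT116. Of these 27 genes, 22 lay below UHRF1 in U2OS and 26 in HCT116. After siMYBL1 in U2OS, 7 S-phase genes (median -0.43) and 10 G2 and mitosis genes (median -0.58) were lower in the authors' deposited table, beside UHRF1 at -0.62. After siMYBL1 in HCT116 no gene of either list was called (DESeq2; 1 S-phase and 6 G2 and mitosis genes at an unadjusted p under 0.05), with medians of -0.05 and -0.24 in the authors' deposited table, beside UHRF1 at -0.17. The share of all listed genes called after siMYBL1 was 5.71% in U2OS and 0.260% in HCT116. In the double knockdown, 5 of 27 S-phase genes were lower in U2OS (median -0.25) and 13 of 27 in HCT116 (median -0.53) in the authors' deposited tables. Beside these counts, 12.6% of all listed genes were called in U2OS and 6.95% in HCT116. HELLS lay at 0.16 in U2OS and -0.66 in HCT116 in the authors' deposited tables. At least 1 gene of each list was called in every comparison in which UHRF1 or HELLS was called. In HCT116 after siMYBL2 the S-phase list gave 1 such gene, RRM2. Both lists were chosen with earlier results of these data known, so this overlap describes the genes and supports nothing further. HELLS was called in the HCT116 double knockdown only, and in U2OS it lay above siCtrl after siMYBL2 (0.22) and the double knockdown (0.16). The part of these cell cycle genes in the member changes was not tested.

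**Figure D4:**
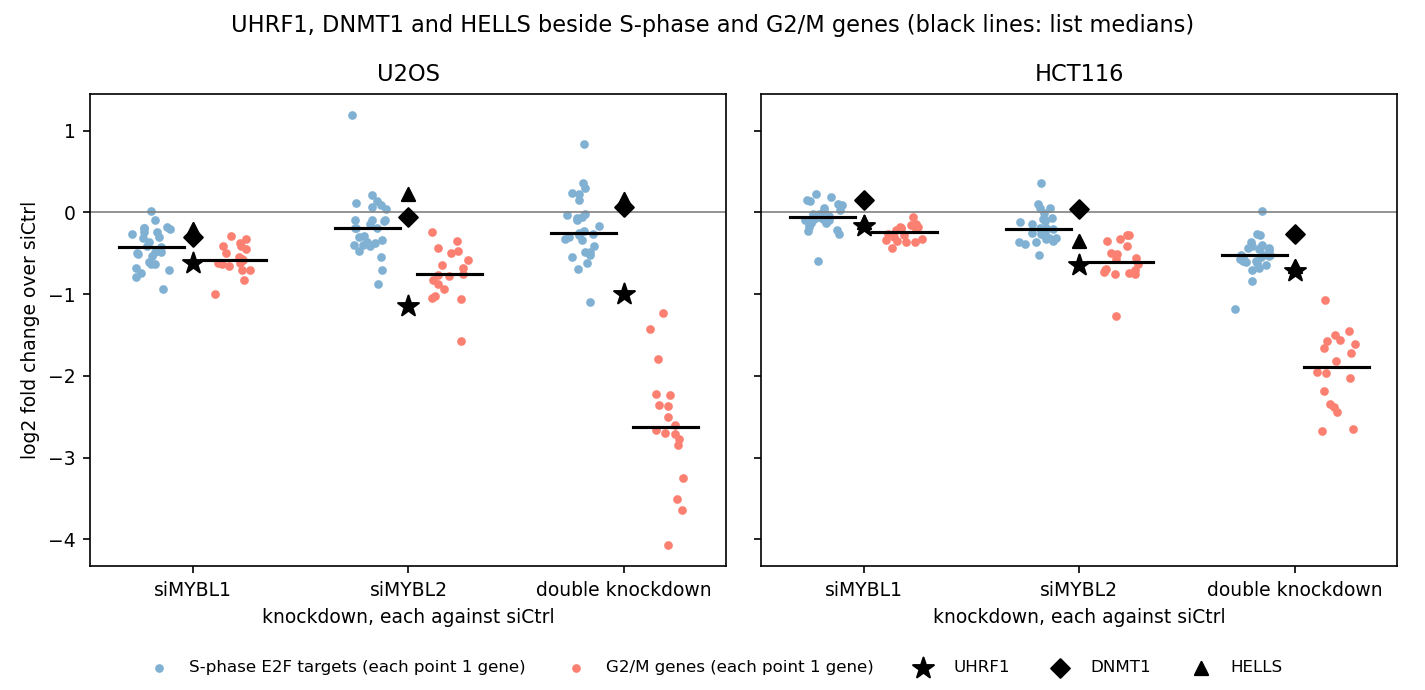
Log2 fold change over siCtrl (y axis) of 27 S-phase genes (blue points), 18 G2 and mitosis genes (red points), UHRF1 (star), DNMT1 (diamond) and HELLS (triangle) in each knockdown of U2OS (left) and HCT116 (right), from the authors' deposited tables; black lines are list medians. The star lies below every blue point after siMYBL2 in both lines and above every red point in the double knockdowns, whose medians are -2.63 and -1.89.

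Of the 9 partners of maintenance methylation, 1 was called after siMYBL1, 0 after siMYBL2 and 2 after the double knockdown in U2OS, and 0, 0 and 1 in HCT116. The shares of all listed genes called were the 5.71%, 5.20% and 12.6% in U2OS and 0.260%, 1.13% and 6.95% in HCT116 given above. PCNA, the replication clamp, LIG1, USP7, ZBTB24, CHAF1A and CHAF1B were not called in any comparison. CDCA7L was lower in U2OS after siMYBL1 (log2 fold change -0.80, adjusted p = 0.0113) and the double knockdown (-1.12, adjusted p = 3.25e-05) in the authors' deposited tables. CDCA7, which recruits HELLS to chromatin, was lower in the authors' deposited table of the U2OS double knockdown (-0.80, SE 0.273, adjusted p = 0.0297). PCLAF, which binds PCNA, was lower in the authors' deposited table of the HCT116 double knockdown (-0.68, SE 0.177, adjusted p = 0.00424). None of the 9 was called after siMYBL2 (DESeq2; 1 in each line at an unadjusted p under 0.05), where the list median was -0.16 in U2OS and -0.20 in HCT116 and UHRF1 fell in both lines, in the authors' deposited tables. Beside 5.20% and 1.13% of all listed genes, no call among 9 is near the background and does not show that the partners were unchanged.

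Among 13 genes of active demethylation and base excision repair, OGT and GADD45A were higher. OGT, the O-GlcNAc transferase that binds TET proteins, rose in U2OS after siMYBL1 (0.55, adjusted p = 0.03), siMYBL2 (0.56, adjusted p = 0.0122) and the double knockdown (0.72, adjusted p = 0.000358), and in the HCT116 double knockdown (0.44, adjusted p = 0.0293), in the authors' deposited tables. GADD45A, a stress-induced gene that is also a p53 target, rose in U2OS after siMYBL1 (1.18, adjusted p = 6.89e-05) and the double knockdown (1.23, adjusted p = 6.69e-06), and in the HCT116 double knockdown (0.68, adjusted p = 0.00107), in the authors' deposited tables. LIG3, a DNA ligase, and UNG, the uracil glycosylase, fell in the authors' deposited table of the HCT116 double knockdown (-0.66, adjusted p = 0.00574, and -0.46, adjusted p = 0.0319). The list median stayed between -0.14 and 0.04 over the 6 authors' deposited tables. Of 7 readers of methylated DNA, ZBTB38 was, in the authors' deposited U2OS tables, higher after siMYBL1 (0.80, adjusted p = 0.00522) and lower after siMYBL2 (-0.80, adjusted p = 0.0206). ZBTB33 (Kaiso) was lower in U2OS after siMYBL1 (-0.81, adjusted p = 0.0425) and the double knockdown (-0.96, adjusted p = 0.00515) in the authors' deposited tables. No reader was called in HCT116 (DESeq2; 1, 0 and 1 at an unadjusted p under 0.05 after siMYBL1, siMYBL2 and the double knockdown), where the smallest adjusted p in the authors' deposited tables was 0.159, of MBD3 in the double knockdown. In the same order, 0.260%, 1.13% and 6.95% of all listed genes were called in HCT116 and 5.71%, 5.20% and 12.6% in U2OS. No call among 7 readers in HCT116 is near the background, and a difference between the lines is not shown by it.

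The genes whose 6 log2 fold changes were most like those of UHRF1 were sought by root mean square difference, over the 10265 genes whose base mean reached 100 in all tables. The 5 nearest were ATP2B4 (0.087), a calcium pump of the plasma membrane, FOS (0.099), a subunit of the AP-1 transcription factor, SLC2A4RG (0.108), FAM168B (0.132) and CSGALNACT2 (0.143), beside a median distance of 0.790 over all these genes. Genes picked this way are close by selection, so a small distance is no finding of its own. The SE of single UHRF1 log2 fold changes ran from 0.129 to 0.175, and the order of the 5 was not tested. ATP2B4, the nearest, had log2 fold changes of -0.50, -1.16 and -1.08 in U2OS and -0.05, -0.60 and -0.62 in HCT116, for siMYBL1, siMYBL2 and the double knockdown, in the authors' deposited tables. Over the 4 comparisons with siMYBL2 alone, 3 of these 5 remained among the nearest. For DNMT1 the 3 nearest were MED28 (0.061), CABLES2 (0.077) and NOL12 (0.080), beside a median distance of 0.298, and 0 of these 3 remained among the nearest over the 4 comparisons with siMYBL2 alone.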

How the data were processed

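Total RNA of 16 libraries (2 in each of 8 groups) was sequenced in read pairs, per the labels. The submitters' processing notes name cutadapt 4.4, Salmon 1.10.1, DESeq2 1.40 and hg38, and give no order, settings or annotation. Each of the 6 tables is the authors' comparison of 2 knockdown with 2 siCtrl libraries. The deposited base mean is a normalized signal (mean normalized count), the deposited fold change and its standard error are log2 values, the deposited Wald statistic is a score, and the deposited p-values are unadjusted and Benjamini-Hochberg adjusted over the listed genes. The tables hold no values per library, so depth, replicate spread and count tests could not be examined. The p-values rest on 2 libraries a group and on the deposited DESeq2 standard errors, and not on a spread seen here. Whether counting used strand is not given in the sources used here, so TET2 and its antisense gene cannot be told apart.

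Group levels were worked out from base mean B and log2 fold change L as siCtrl = 2B/(1 + 2 to the power L). Tables were set against each other by subtracting log2 fold changes and dividing by the root of the summed squared standard errors. The 2-sided normal p was adjusted by Benjamini-Hochberg over all shared genes (Python 3.11.15, SciPy 1.17.1). This was tested on simulated fold changes drawn independently for each table. Such data cannot check the error of contrasts within a line, whose tables share siCtrl libraries. Of 11 such contrasts, 4 were added after the data were seen. Members and gene lists were chosen with earlier results of these data known. Members were always named, with up to 4 called genes with the smallest adjusted p per list and comparison, MYBL1, MYBL2, and the genes most like UHRF1 (5) and DNMT1 (3). RRM2, MCM2, CDC6, PLK1 and CENPE, and the uncalled partners, were named to show their list. Motifs were searched on both strands of RefSeq windows (GRCh38.p14). Alternatives were thresholds of 0.1 and 0.01, a base mean of at least 100 with adjustment repeated, median centring, a smaller error for shared controls, and siCtrl levels from single tables.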

Additional observations from a re-analysis of the deposited data

How the results depend on the processing

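No paired analysis was possible because the tables hold no values per library; leaving out a replicate and count tests with other tools were not run for the same reason. Of 140 counts, levels and nearest-gene lists under other settings, 129 stayed and 11 moved. A count of called members or of shared nearest genes stayed if within 1.5 times the main value. A siCtrl level stayed if its log2 distance from the mean was below the SE of that comparison's log2 fold change. At a threshold of 0.01 the members called were 0 after siMYBL1 and 1 after the double knockdown in U2OS, and 0 for siMYBL1 against siMYBL2 in U2OS. At 0.1, 1 member (HELLS, adjusted p = 0.0863) was called for the double response of U2OS against HCT116. With the median log2 fold change set to 0, 1 member was called after siMYBL1 in U2OS (DNMT3B, adjusted p = 0.0551, was lost). That setting also turned the sign of 4 values near 0: DNMT3A after siMYBL2 in HCT116 to 0.019, UHRF2 between double knockdown and siMYBL1 in HCT116 to 0.025, TET2 between the lines after siMYBL2 to -0.024, and MBD4 between siMYBL1 and siMYBL2 in U2OS to -0.010. With the smaller error for shared siCtrl libraries, the double knockdown against siMYBL1 called 3 members in HCT116 and 1 in U2OS, and siMYBL1 against siMYBL2 called 1 in HCT116 (UHRF1, adjusted p = 0.0358) and 2 in U2OS (DNMT3B and UHRF1, the second with adjusted p = 0.0307). The share of all genes called with the smaller error was not worked out, so these counts cannot be set against a background. Over the 4 comparisons with siMYBL2 alone, 3 of the 5 genes nearest to UHRF1 and 0 of the 3 nearest to DNMT1 were shared. With a base mean of at least 100 and adjustment repeated, all 17 counts of called members stayed the same. All 60 siCtrl levels from single tables also stayed. Those of a line come from the same 2 siCtrl libraries, so they are no independent check.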

Other observations

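Beyond the enzymes, NSD2, which methylates histone H3 at lysine 36, a mark that guides DNMT3A and DNMT3B, was the 1 called gene of 16 in the H3K9 and H3K36 list. It was lower in U2OS after siMYBL2 (log2 fold change -0.58, adjusted p = 0.0383) and the double knockdown (-0.51, adjusted p = 0.0307), and in HCT116 (-0.54, adjusted p = 0.0334, and -0.80, adjusted p = 2.83e-06), in the authors' deposited tables. After siMYBL1 NSD2 was at 0.13 in U2OS and 0.20 in HCT116 in the authors' deposited tables, uncalled in both. Of all listed genes, 5.20% and 12.6% were called after siMYBL2 and the double knockdown in U2OS, and 1.13% and 6.95% in HCT116. The NSD2 calls thus describe 1 gene and not the list of 16. Of 10 methyl donor genes, SHMT2, a mitochondrial enzyme of one-carbon metabolism, was called, higher in the authors' deposited table of the U2OS double knockdown (0.68, adjusted p = 0.000567). With 12.6% of all listed genes called there, 1 call among 10 is near the background.

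Of 28 germline genes that promoter methylation is known to silence, 8, 9 and 11 were listed in U2OS and 3, 2 and 2 in HCT116 (siMYBL1, siMYBL2, double knockdown), and 0 were called in any of the 6 DESeq2 tables, with 0 at an unadjusted p under 0.05. The lowest listed base mean was 30.2, 24.5 and 14.5 in U2OS and 4.46, 28.4 and 40.4 in HCT116, in the same order. The numbers listed therefore cannot be compared between knockdowns. Germline genes that were not listed had no test, so these counts cannot show whether silent genes of this kind rose. Between 0.260% and 12.6% of all listed genes were called in these tables, so no call among 2 to 11 genes is near the background. MAGEB2 and MAGEA3 were the 2 listed in all 6 tables, and their log2 fold changes lay between -0.21 and 0.25 in the authors' deposited tables. Listed genes of this kind could already be abundant: base means in the authors' deposited tables were 2009 to 2047 in U2OS and 3527 to 3740 in HCT116 for MAGEB2, and 8004 to 8141 in U2OS for MAGEA4 (named after its values were seen).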
